A study of Mus musculus with 2 samples.

Results

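Low-UMI droplets carrying hepatocyte RNA made up 2662 of the 13240 deposited barcodes of mouse liver, 1925 of 7359 in the library from chow-fed mice and 737 of 5881 in the library from mice on a NASH (nonalcoholic steatohepatitis) diet. A barcode tags 1 droplet and a UMI (unique molecular identifier) tags 1 captured RNA molecule, so the UMI total is the depth of a barcode. The droplets were chosen by 3 measured values in each library's own matrix: fewer than 2000 UMIs, at most 30% of UMIs from mitochondrially encoded (mt-) genes, and at least 2% of UMIs from the 5 gate genes Alb, Apoa1, Apoa2, Ttr and Serpina1c, which encode abundant plasma proteins of hepatocytes. Within each library they were set beside the deep barcodes, which have at least 10000 UMIs and pass the same mt and gate limits, 1839 in chow and 935 in the NASH diet. The UMI total, the mt share and the gate genes fixed who belonged to which set, and their values below are a description only.

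The mice were C57BL/6, fed for 6.5 weeks either chow or a diet rich in fructose, fat and cholesterol. Liver was digested with collagenase, hepatocytes of several densities and non-parenchymal cells were collected over Percoll, and 1 library per diet was made with a 10x Genomics kit that captures the 3′ end of polyadenylated RNA. The sources used here do not say how many mice went into a library. With 1 library per diet nothing could be tested between diets, and barcodes of 1 library are not replicates, so the comparisons carry no p-value. Intervals are exact 95% intervals and cover counting error only.

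A droplet can be filled by a whole cell, by a damaged cell that has lost part of its cytoplasm, or only by RNA set free into the suspension when cells break, and each leaves a different mixture of messages. In an intact hepatocyte, messages for secreted and membrane proteins are translated on the endoplasmic reticulum, whereas messages for cytosolic enzymes and ribosomal proteins are translated mainly on free ribosomes. Malat1 and Neat1 are retained in the nucleus, and the 13 mt- messages lie inside mitochondria. Ribosomal RNA normally has no poly(A) tail, so transcripts of the ribosomal repeat are a small side product of oligo(dT) capture.

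The transcripts named as markers of these droplets, Gm42418 and AY036118, lie on top of each other on opposite strands of chromosome 17. In GRCm38 Gm42418 spans chr17:39846958-39848788 on the plus strand and AY036118 chr17:39847113-39848035 on the minus strand. The whole of AY036118, 923 bases, is the complement of bases 156 to 1078 of Gm42418, and it is also found base for base on the same strand of a GENCODE M21 gene of biotype rRNA that is 1849 bases long. The same 60 genomic bases, chr17:39847113-39847172, are shown as each transcript reads them, because they hold the only run of 6 A in Gm42418; capitals mark that run and its complement in AY036118.
Gm42418: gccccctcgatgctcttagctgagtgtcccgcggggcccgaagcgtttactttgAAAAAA
AY036118: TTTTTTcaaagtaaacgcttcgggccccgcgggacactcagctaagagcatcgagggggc
A run of 6 A is found in 37.7% of the annotated transcripts, so its presence in Gm42418 is a description. No source used here says whether reads were counted by strand, and without strand the pair cannot be told apart. They are therefore summed as the ribosomal-repeat share below.

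Depth and gate values were as the rule set them. The droplets had a median of 652 UMIs and 372 genes in chow and 1027 UMIs and 506 genes in the NASH diet, against medians of 26825 and 21771 UMIs in deep barcodes. All droplets together held 1.97% of the chow library's UMIs and 2.10% of the NASH diet library's. Their lowest UMI totals were 510 and 744. The median mt share was 6.42% in chow and 22.7% in the NASH diet, so the diets differed in a value that bears on membership.

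The limits cut the libraries in different places. In chow, 325 barcodes under 2000 UMIs failed the mt limit and 72 failed the gate. In the NASH diet library 1848 failed the mt limit and 225 failed the gate, so the 737 droplets are the low-mt end of a larger cloud. The 53 NASH diet droplets within 1 percentage point below the mt limit had a median ribosomal-repeat share of 1.88%, and the 74 barcodes within 1 percentage point above it had 1.98%. At the UMI limit, the 6 chow droplets within 100 UMIs below it had a median of 0.154% and the 8 barcodes above it 0.240%. The NASH diet values were 1.02% for 16 droplets and 0.995% for 15 barcodes. At the gate, the 38 chow droplets just inside had a median of 0.383% and the 28 barcodes just outside 0.451%. The NASH diet order was the opposite, 1.60% in 75 droplets just inside and 1.47% in 79 barcodes just outside.

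**Figure D1:**
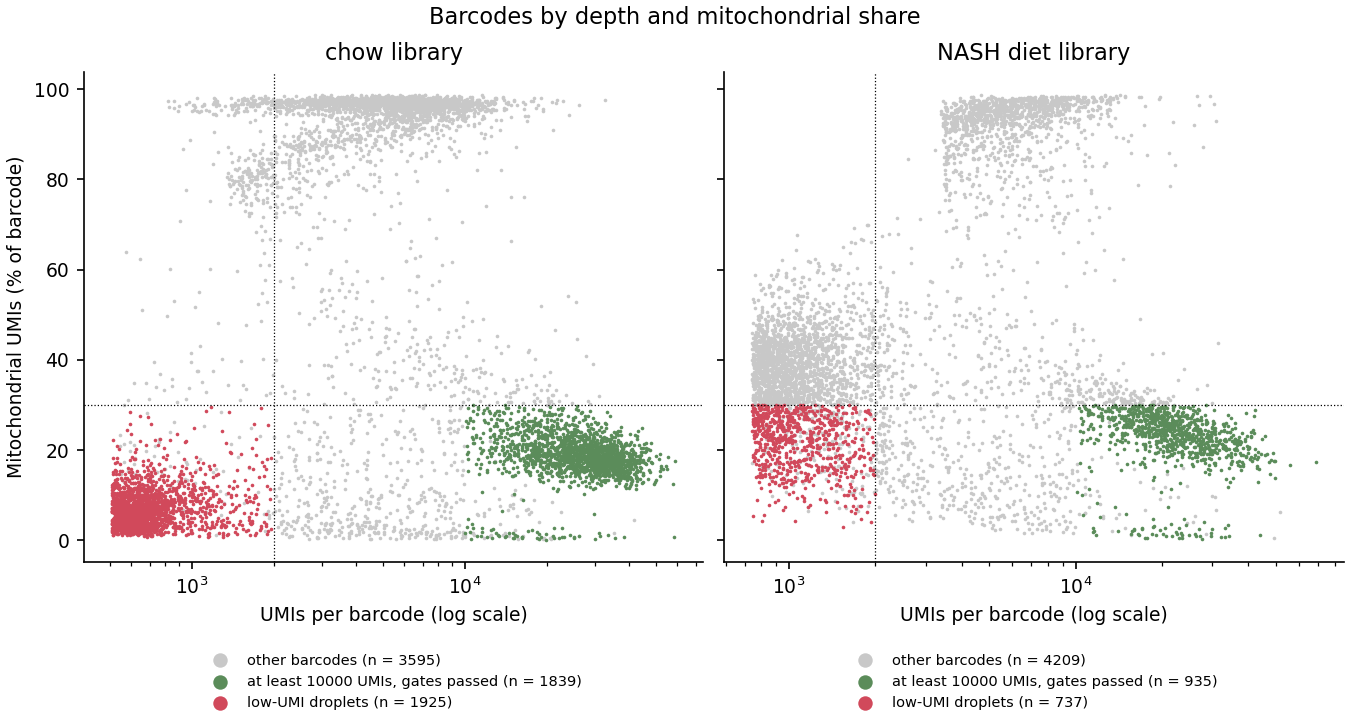
Each point is 1 barcode, with its UMI total on a log axis and its mitochondrial share in percent; dotted lines mark 2000 UMIs and 30%, and colours separate low-UMI droplets, deep barcodes and all others. Chow droplets lie around a median mt share of 6.42%, while NASH diet droplets, median 22.7%, end at the 30% limit in the middle of a cloud.

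Hepatocyte markers outside the gate, which the rule did not use, were set beside the label. All 20 of these markers had UMIs in the droplets of both libraries. Together they took 6.22% of UMIs in chow droplets and 5.78% in NASH diet droplets, against 8.66% and 6.79% in deep barcodes. Their median log2 ratios, droplets over deep barcodes, were -0.68 in chow and -1.28 in the NASH diet. At least 2-fold lower were 7 and 11 of the 20, and 2 were higher in each library. The shares over all genes were 12.3% and 15.9% lower, and 17.1% and 12.9% higher. Fabp1 held 21357 of the markers' 47950 UMIs in NASH diet droplets. Barcodes of Kupffer or sinusoidal endothelial cells, which should not make hepatocyte messages, also held UMIs of the gate genes. All 20 markers had UMIs there too, taken over such barcodes of any depth, so their presence does not set the droplets apart. The gate share of these barcodes is another measure than the share of the 20 markers. Under 2000 UMIs, 17 such chow barcodes (median 971 UMIs) had a median gate share of 1.11%, and 4 were also among the droplets. The 15 in the NASH diet (median 1221 UMIs) had 1.57%, and 5 were also among the droplets. At any depth the median was 0.227% in 93 chow barcodes and 0.374% in 39 NASH diet barcodes. The droplets' medians, 4.16% and 3.25%, had to exceed 2% by the rule and are no check of the label. Of the barcode sequences, 69 occurred in both libraries, 18 of them as chow droplets and 7 as NASH diet droplets, and 1 was a droplet in both. No droplet was 1 base away from a deep barcode of its library.

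The ribosomal-repeat share was an order of magnitude higher in the droplets than in deep barcodes of the same library. In chow it was 0.726% of UMIs (0.712 to 0.740) against 0.0594% (0.0588 to 0.0601), 12.2-fold, a log2 ratio of 3.61 (3.58 to 3.64). In the NASH diet it was 1.99% (1.96 to 2.02) against 0.140% (0.138 to 0.141), 14.2-fold, a log2 ratio of 3.83 (3.80 to 3.86). Both transcripts shared the direction in both libraries. Gm42418 stood at 6304 CPM (counts per 1e6 UMIs) in chow droplets against 580.5 in deep barcodes, and at 17779 against 1337 in the NASH diet. AY036118 stood at 957 against 13.9 CPM in chow and at 2089 against 61.1 CPM in the NASH diet. A high share was not particular to these droplets. The Kupffer or sinusoidal endothelial barcodes under 2000 UMIs had 0.915% in chow (17 barcodes, 4 also droplets). In the NASH diet they had 1.52% (15 barcodes, 5 also droplets).

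Counted per barcode, the order of droplets and deep barcodes was the opposite. A chow droplet held on average 5.33 UMIs of the pair and a chow deep barcode 16.1. A NASH diet droplet held 22.4 and a deep barcode 32.5. From 750 UMIs on, the share was lower in each deeper bin of both libraries. It stood at 0.761% in chow barcodes of 500 to 750 UMIs, 0.847% at 750 to 1000, 0.267% at 1500 to 2000, 0.196% at 2000 to 5000 and 0.0564% at 20000 or more. The NASH diet library gave 2.35% in the 9 barcodes of 500 to 750 UMIs, 2.36% at 750 to 1000, 0.685% at 2000 to 5000 and 0.123% at 20000 or more.

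**Figure D2:**
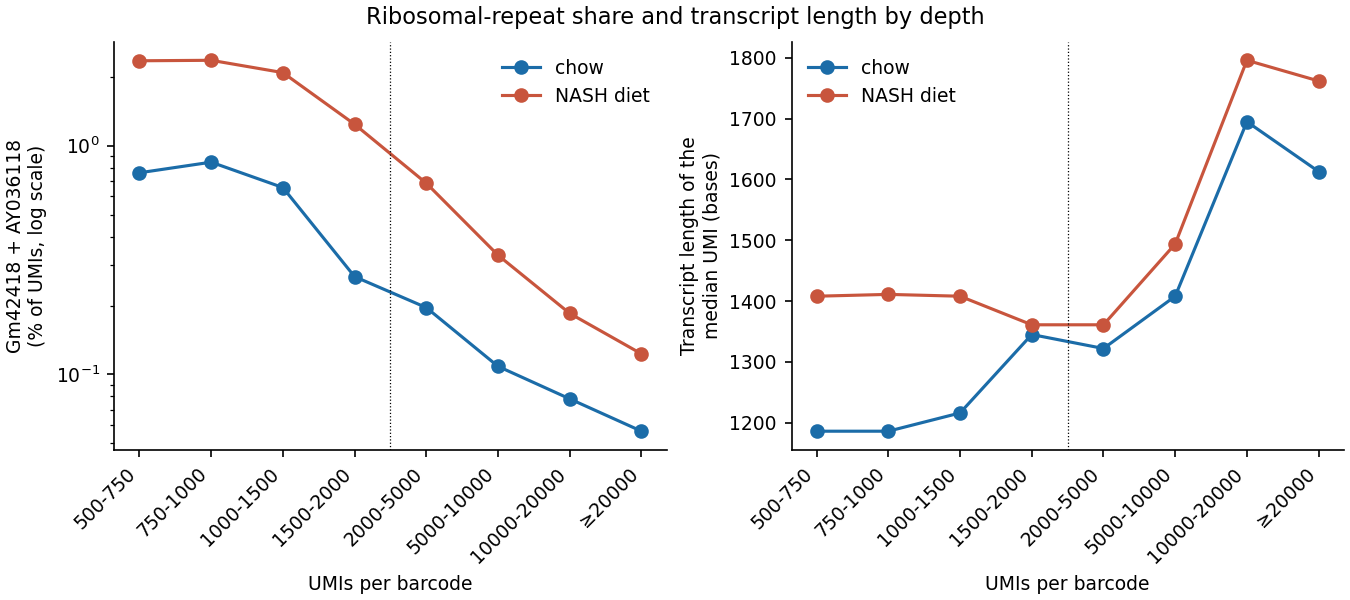
Points are the summed UMIs of all gate-passing barcodes in each bin of UMIs per barcode; the left panel gives the share of Gm42418 and AY036118 in percent on a log axis and the right panel the transcript length, in bases, of the median UMI. The share is highest in the bins left of the dotted 2000 UMI line in both libraries. Transcript length in chow is 1186 bases at 500 to 750 UMIs and 1613 at 20000 or more, but it does not step at the line (1345 and 1322 bases on either side in chow, 1361 on both sides in the NASH diet).

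The pair was spread over nearly all droplets, with a short tail of extreme ones. Gm42418 had a UMI in 1849 of 1925 chow droplets and in 737 of 737 NASH diet droplets. The median share per droplet was 0.594% in chow and 1.73% in the NASH diet. In 15 chow and 13 NASH diet droplets the pair made up at least 5% of UMIs, and the highest shares were 34.6% and 46.3%. Without these droplets, an alternative added after the data had been seen, the log2 ratios were 3.44 and 3.62.

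Across all genes, 4037 had a mean of at least 20 CPM over the 4 sums (droplets and deep barcodes of each library) and entered the comparison, and a gene at least 2-fold apart on the log2(CPM + 5) scale was counted. In chow, 690 genes (17.1%) were higher in the droplets and 498 (12.3%) lower. In the NASH diet, 521 (12.9%) were higher and 641 (15.9%) lower. In both libraries at once, 423 (10.5%) were higher and 351 (8.69%) lower. The median ratio of all genes was 0.05 in chow and 0.02 in the NASH diet. It moved to -0.13 and 0.02 when CPM were taken over UMIs outside mt and ribosomal-repeat genes. On that scale 369 genes were higher and 493 lower in both libraries. The ribosomal-repeat genes left out of the total, here and below, were Gm42418, AY036118, Lars2 and Gm26917.

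These counts depended on which deep barcodes were used. With the mt limit at 15% for both sets, 7 genes were higher in both libraries and 65 lower, but that limit left 229 of 1839 deep barcodes in chow and 73 of 935 in the NASH diet library. With 15% for the droplets only, an alternative chosen after this result had been seen, the counts were 535 and 345 over 1829 chow and 116 NASH diet droplets. The paragraph on low-mt deep barcodes below describes the 73.

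The 10 genes ranked highest in the droplets, mt and gate genes aside, began with the repeat pair, Tmsb4x and Lars2. Lars2, which encodes mitochondrial leucyl-tRNA synthetase, stood at 868 against 36.2 CPM in chow and 1252 against 73.7 in the NASH diet, log2 ratios of 4.40 and 4.0. Lars2 had been put on the list of ribosomal-repeat transcripts together with the pair. Whether its reads stand for its own message or for repeat RNA was not tested. Ubb, a polyubiquitin gene, stood at 1478 against 264.8 CPM in chow and 1476 against 343 in the NASH diet, ratios of 2.46 and 2.09. It was read in 1228 chow and 566 NASH diet droplets, so many droplets contributed. Psmb5 (a proteasome subunit; 2.41 and 2.24), Hspb1 (a small heat shock protein; 2.04 and 2.35), Mrps28 (a mitochondrial ribosomal protein; 1.99 and 1.89) and Gstp1 (a glutathione transferase; 1.93 and 2.30) followed. With the mt limit at 15% for both sets, these NASH diet ratios no longer reached 2-fold for Ubb (0.03), Psmb5 (0.17), Mrps28 (0.38) and Gstp1 (-0.16), nor did the chow ratios of Gstp1 (0.86) and Hspb1 (0.997).

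Tmsb4x and Cd74 ranked as high as these but came from few droplets. Tmsb4x, an actin-binding protein gene abundant in blood cells, stood at 195 against 4.94 CPM in chow and 409.6 against 7.03 in the NASH diet, log2 ratios of 4.33 and 5.11. Its UMIs lay in 130 chow and 83 NASH diet droplets. Cd74, the invariant chain of MHC class II, had ratios of 3.09 and 4.01, and its UMIs lay in 28 and 19 droplets. Its NASH diet ratio was 0.76 without the droplets that held a marker UMI of another cell type and 0.92 with the gate at 5%. The 106 markers of other liver and blood cell types made up 0.0773% of UMIs in chow droplets against 0.0274% in chow deep barcodes, and NASH diet shares of 0.0599% and 0.0198%; 45 of the 106 were at 0 in chow droplets and 52 in NASH diet droplets. At least 1 such UMI was found in 314 chow and 187 NASH diet droplets. In chow, all 386 UMIs of the beta-globin gene Hbb-bs came from 1 droplet.

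Among the 10 genes ranked lowest in the droplets, the first was Cyp2f2, a periportal cytochrome P450 of the endoplasmic reticulum. It stood at 132 against 842 CPM in chow and 163 against 1203 in the NASH diet, log2 ratios of -2.63 and -2.85. Cp, which encodes the plasma copper protein ceruloplasmin, had ratios of -2.45 and -2.69, and Fga, the fibrinogen alpha chain, -2.0 and -2.77. Plasma prekallikrein (Klkb1; -2.09 and -2.22), transferrin receptor 2 (Tfr2; -1.99 and -2.52) and the lipid droplet protein gene Hsd17b13 (-2.05 and -1.99) were also in the group. So were Tpp1, a lysosomal protease (-1.99 and -2.11), Sel1l, of endoplasmic reticulum-associated degradation (-1.98 and -2.03), and Dag1, dystroglycan (-1.97 and -2.41), but Dag1 rested on 9 and 4 droplet UMIs. With the mt limit at 15% for both sets, the NASH diet ratios of Cyp2f2 (-0.38), Fga (-0.53), Klkb1 (-0.74), Tfr2 (-0.31) and Hsd17b13 (-0.64) no longer reached 2-fold.

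Messages for secreted plasma proteins were lower in the droplets as a group. Of the 33 measured, 17 were at least 2-fold lower in chow and 22 in the NASH diet, and 0 were higher in either. The shares over all genes were 12.3% and 15.9% lower, and 17.1% and 12.9% higher. The list medians were -1.05 and -1.44. Serpina3k, a serine protease inhibitor, stood at 5304 against 12733 CPM in chow and 2442 against 10915 in the NASH diet, ratios of -1.26 and -2.16, which were -0.93 and -0.44 with the mt limit at 15% for both sets. With the gate at 5% the list medians were -0.86 and -0.98. Apoc1, a short apolipoprotein message, went the other way in chow, 19379.6 against 11029 CPM, a ratio of 0.81, and stood at 15786 against 15867 CPM in the NASH diet. Alb itself, a gate gene and so a description only, stood at 7646 against 25717.5 CPM in chow and 9944 against 37835 in the NASH diet.

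Messages for enzymes of the endoplasmic reticulum were likewise lower, and more so in the NASH diet library. Of the 27 that passed the filter, 9 were at least 2-fold lower in chow (median -0.76) and 24 in the NASH diet (median -1.68, or -0.75 with the gate at 5%), and 0 were higher. Over all genes, 12.3% and 15.9% were lower. Cyp2e1, a pericentral P450 that oxidises ethanol and drugs, stood at 1230.1 against 1343 CPM in chow, a ratio of -0.13, but at 726 against 2209.8 CPM in the NASH diet, a ratio of -1.60. Cyp3a11, a drug-metabolising P450, had ratios of -0.63 and -1.84. Scd1, the stearoyl-CoA desaturase, had ratios of -1.41 and -1.36, the second becoming 0.53 with the mt limit at 15% for both sets. Whether chow and the NASH diet differed here was not tested.

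Messages for cytosolic enzymes had medians of 0.45 in chow and 0.54 in the NASH diet. Of 34, 8 were at least 2-fold higher in chow and 6 in the NASH diet, not far from the 17.1% and 12.9% of all genes, against 2 and 1 lower. Fabp1, the liver fatty acid binding protein, stood at 13458 against 4991 CPM in chow and 25730.1 against 10813 in the NASH diet, ratios of 1.43 and 1.25, which were 0.73 and 0.04 with the mt limit at 15% for both sets. Gnmt, glycine N-methyltransferase, had 1.25 and 1.42, and Ass1, argininosuccinate synthase of the urea cycle, had 1.0 and 1.19. Tat, tyrosine aminotransferase, had -0.79 and -1.03. Nuclear-encoded enzymes of mitochondria were divided, with medians of 0.01 and 0.15 over 27 genes: Cps1, the first enzyme of the urea cycle, had -1.85 and -2.37, while Acaa2, a thiolase of fatty acid oxidation, had 1.46 and 1.35.

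Ribosomal protein messages and the nuclear-encoded subunits of oxidative phosphorylation were higher. Of 81 cytosolic ribosomal protein genes, 54 were at least 2-fold higher in chow and 32 in the NASH diet, and 0 were lower, with medians of 1.11 and 0.83. Rps2 stood at 2145 against 865 CPM in chow and 1985 against 855 in the NASH diet. Of 57 subunits of the respiratory chain, 36 and 22 were higher and 0 lower, with medians of 1.10 and 0.89. Over all genes, 17.1% in chow and 12.9% in the NASH diet were higher. Uqcrq, of complex III, had ratios of 1.22 and 0.84. With the mt limit at 15% for both sets, the chow medians were 0.70 for ribosomal proteins and 0.64 for respiratory chain subunits. Without mt and ribosomal-repeat UMIs in the total they were 0.95 and 0.93. The mt- messages, whose total the rule limits, had medians of -1.25 in chow and 0.11 in the NASH diet.

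**Figure D3:**
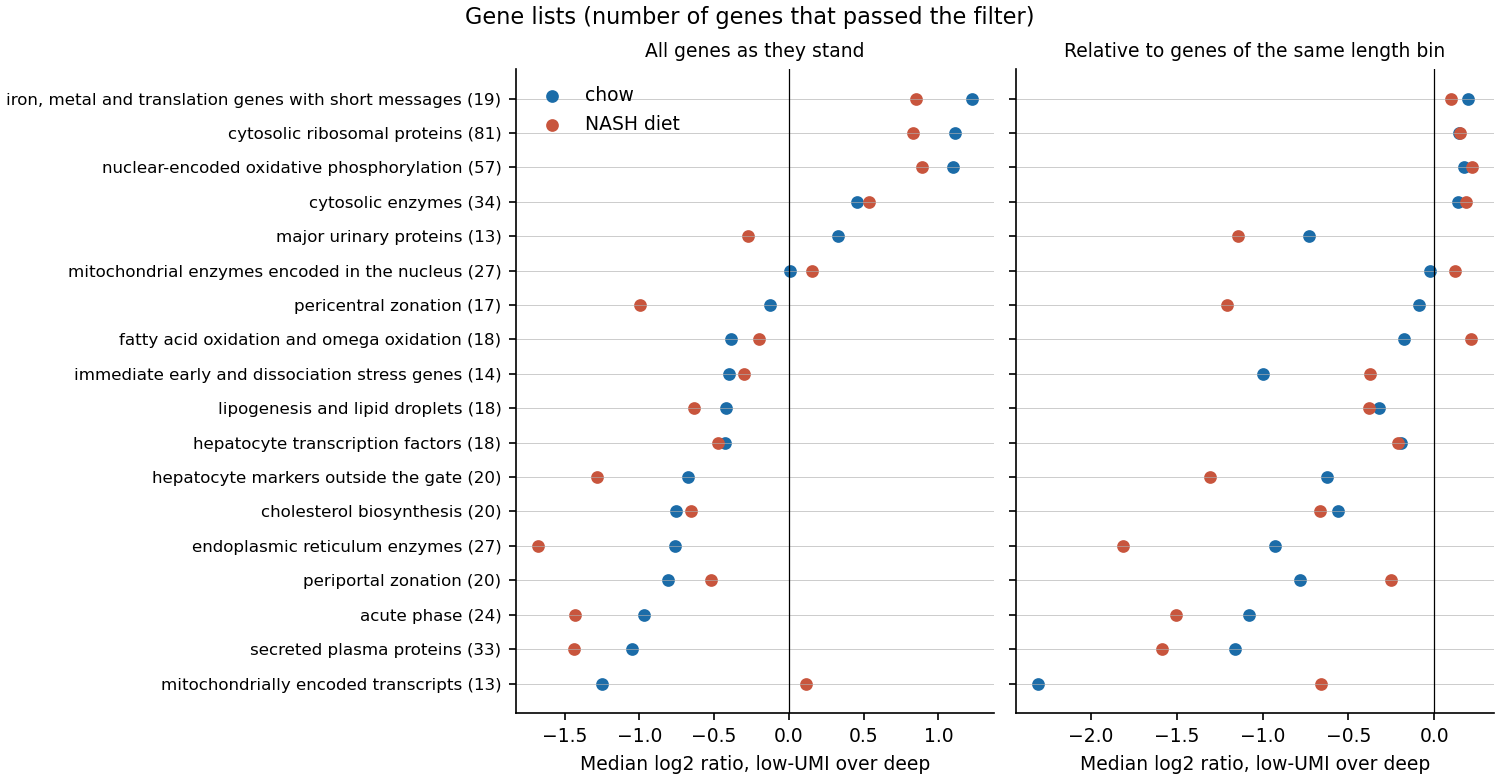
Each point is the median log2 ratio, droplets over deep barcodes, of 1 gene list in 1 library; the number in brackets is how many of its genes passed the filter, and the right panel gives the median after subtracting the median of all kept genes in the same transcript length bin. The ribosomal protein list moves from 1.11 to 0.15 in chow relative to its length bins, which include its own genes. Secreted plasma proteins go from -1.05 to -1.16.

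Much of this order followed transcript length. Genes with transcripts under 800 bases had a median ratio of 1.11 in chow and 0.80 in the NASH diet, and the medians were 0.19 and 0.21 at 1600 to 2400 bases and -0.63 and -0.55 at 3600 bases or more. Over 3988 protein-coding genes outside mt, Spearman's rho between length and ratio was -0.66 in chow and -0.55 in the NASH diet; genes of 1 sum share their libraries and total, and rho is given as a description. Against all kept genes of the same length bin, ribosomal proteins had medians of 0.15 and 0.15, respiratory chain subunits 0.17 and 0.22, and cytosolic enzymes 0.14 and 0.18. Secreted plasma proteins had -1.16 and -1.59, and enzymes of the endoplasmic reticulum -0.93 and -1.82. Each bin included the list's own genes, which can draw these medians towards 0. The bins under 800 and of 800 to 1200 bases held 248 and 410 genes. Ribosomal proteins (81 genes, median length 886 bases) and respiratory chain subunits (57 genes, 765 bases) were part of that baseline. How much of their rise goes with length was not tested.

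**Figure D4:**
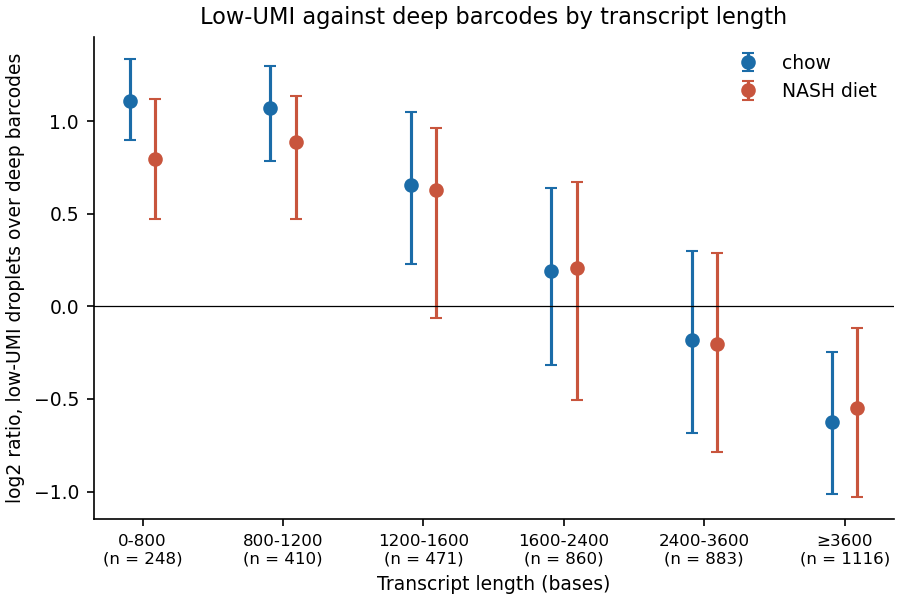
Points are the median log2 ratio, droplets over deep barcodes, of kept protein-coding genes in each bin of transcript length in bases, and bars span the middle 50% of genes (not an error of measurement). Medians go from 1.11 to -0.63 in chow and from 0.80 to -0.55 in the NASH diet between the shortest and the longest bin.

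In the NASH diet library, deep barcodes of low mt share had shares of several message classes near those of the droplets, but not their ribosomal-repeat share. The 73 NASH diet deep barcodes with at most 15% mt UMIs had a median of 21454 UMIs. Cytosolic enzymes made up 7.17% of their UMIs, ribosomal proteins 6.92% and respiratory chain subunits 4.63%, against 6.38%, 6.43% and 3.80% in NASH diet droplets and 3.25%, 3.48% and 2.0% in the other 862 deep barcodes. Their Alb stood at 10406.5 CPM, against 40108 in the 862 and 9944 in the droplets. Their ribosomal-repeat share was 0.133%, against 0.140% in the 862 and 1.99% in the droplets. With the 15% limit on both sets, rho between length and ratio was 0.016 in the NASH diet and -0.64 in chow, while the ribosomal-repeat log2 ratio was 3.58 and 3.53. The NASH diet list medians under that limit were 0.09 for ribosomal proteins, -0.02 for respiratory chain subunits, 0.05 for cytosolic enzymes, -0.41 for secreted plasma proteins and -0.38 for enzymes of the endoplasmic reticulum. In chow the 229 deep barcodes of at most 15% mt had an Alb of 25482 CPM and a ribosomal-repeat share of 0.0626%.

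Nuclear long noncoding RNA was scarce in chow droplets, whereas its level in NASH diet droplets depended on which barcodes were compared. Malat1 stood at 120.4 CPM in chow droplets, from 170 UMIs in 82 of 1925 droplets, against 1003 CPM in deep barcodes, a log2 ratio of -3.01. NASH diet droplets had 1063 CPM, from 882 UMIs in 183 of 737 droplets, against 917 CPM, a ratio of 0.21. The NASH diet ratio was -2.21 with the gate at 5%, -0.06 with deep barcodes from 5000 UMIs and 2.69 with the mt limit at 15% for both sets, while the chow ratio lay between -4.13 and -2.71 under all 15 alternatives. The 10 droplets richest in Malat1 held 61.0% of its NASH diet UMIs and 52.4% of its chow UMIs. Neat1 had ratios of -3.94 and -0.55. Among the 73 NASH diet deep barcodes of low mt share, Malat1 stood at 276 CPM.

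Fos and Egr1, immediate early genes picked after their values had been seen, were lower in chow droplets than in deep barcodes. Fos, a transcription factor gene induced within minutes of stress, stood at 14.9 against 122 CPM in chow, a ratio of -2.67, and at 30.1 against 81.8 CPM in the NASH diet, a ratio of -1.31. Egr1 had ratios of -2.64 and -0.55. Their list holds 14 stress and immediate early genes that passed the filter. Of these, 6 were at least 2-fold lower in chow and 4 in the NASH diet, against 1 and 0 higher. Of all genes, 12.3% and 15.9% were lower, a smaller share in each library. The list medians were -0.40 and -0.30. The summed share of the list moved little, with log2 ratios of -0.09 and -0.05, and Hspa8 held 1108 of its 2574 UMIs in chow droplets. Hspa8, a constitutive chaperone, was the higher one in chow, with 1.07.

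Gm26917, which GRCm38 places beside the pair at chr17:39843013-39846341, did not follow it. It stood at 21.2 CPM in chow droplets against 89.7 in deep barcodes, and at 281 against 79.2 CPM in the NASH diet. Of its 233 UMIs in NASH diet droplets, 93.1% came from 19 droplets with at least 5 Malat1 UMIs. With the gate at 5% its NASH diet ratio was -1.70 in place of 1.76.

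At equal depth the droplets were more alike than deep barcodes in the zonation measure used here. Every barcode was thinned to 500 UMIs, and none was left out. The droplets then showed a median of 304 genes in chow and 288 in the NASH diet, against 269 and 270 in deep barcodes; unthinned medians were 372, 506, 3962 and 3640. Zonation, the division of labour between periportal and pericentral hepatocytes, was measured as the pericentral part of zonation UMIs. Its variance between barcodes was 1.5 times the binomial variance in chow droplets and 4.98 times in deep barcodes, and 2.42 against 6.75 times in the NASH diet. A ratio of 1 is what a single mixture sampled at random would give. On average, thinned chow droplets held 8.79 zonation UMIs and thinned chow deep barcodes 8.56. The NASH diet means were 7.40 and 9.87. Mup17, a major urinary protein gene with near-identical copies, was on the pericentral list. It held 9065 of 17218 pericentral UMIs in chow droplets and 202538 of 443334 in chow deep barcodes. In the NASH diet it held 813 of 4843 and 45895 of 223343. The measure was not run without Mup17. The mt share, which the rule limits, varied otherwise: its variance was 13.9 times the binomial one in chow droplets and 8.37 times in deep barcodes, and 10.99 against 12.6 times in the NASH diet.

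For single genes the variance over the mean differed in both directions. Where barcodes truly differ, this ratio also rises with the mean, and the means were unlike. It therefore does not rank the spread of the 2 sets. For Cyp2e1, the variance over the mean was 1.20 in chow droplets and 2.24 in deep barcodes, and 1.07 against 2.86 in the NASH diet. For Mup20, a major urinary protein gene, it was 1.77 against 5.15 in chow and 4.66 against 6.13 in the NASH diet. Its means per 500 UMIs were 4.45 against 8.23 in chow and 4.25 against 10.8 in the NASH diet. Gm42418 had a higher ratio among droplets, 9.65 against 1.11 in chow and 21.7 against 1.54 in the NASH diet. Its means were also higher there, 3.29 against 0.294 and 9.31 against 0.724. Apoe, an apolipoprotein gene, had ratios of 1.48 against 1.24 and 3.07 against 1.48. The same order held for mt-Atp6 (3.84 against 1.96 and 2.79 against 2.42) and, in the NASH diet, for Mup3 (2.87 against 2.21).

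Zonation genes were compared with deep barcodes in each library. Of all genes, 17.1% were higher and 12.3% lower in chow, and 12.9% higher and 15.9% lower in the NASH diet. Pericentral genes had a median ratio of -0.13 in chow, with 2 of 17 higher and 0 lower, and -1.0 in the NASH diet, with 0 higher and 8 lower. The chow median turned to 1.48 with the gate at 5%, 0.42 with the mt limit at 15% for both sets and 0.11 without the tenth of deep barcodes with most UMIs. The NASH diet median was -0.28 with the gate at 5%. Glul, glutamine synthetase of the cells next to the central vein, had 0.66 in chow and -0.81 in the NASH diet. Periportal genes had medians of -0.81 and -0.52 over 20 genes, with 9 and 6 lower and 1 and 3 higher. Pigr, the polymeric immunoglobulin receptor, had -2.06 and -0.95, whereas Sds, serine dehydratase, had 0.73 and 1.79.

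The diets were also compared within the droplets. Of the 4037 genes, 157 (3.89%) were at least 2-fold higher in the NASH diet library and 259 (6.42%) lower; within deep barcodes 100 (2.48%) were higher and 105 (2.6%) lower. Without mt and ribosomal-repeat UMIs in the total, 414 were higher and 185 lower within the droplets, and the median of all genes moved from 0.06 to 0.30. The mt share of summed droplet UMIs was 7.38% in chow and 21.2% in the NASH diet, and its part in these differences was not tested.

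Acute phase genes, which hepatocytes induce upon inflammation, were lower in NASH diet droplets. All 24 that passed the filter were at least 2-fold lower there, median -2.42, and 22 of 24 were so in deep barcodes, median -1.84. Over all genes, 6.42% in droplets and 2.6% in deep barcodes were lower. Saa2, a serum amyloid A gene, stood at 31489.6 CPM in chow droplets and 284 in NASH diet droplets, a log2 ratio of -6.77, against 17529 and 289 in deep barcodes, -5.90. Ratios in droplets and deep barcodes were -5.29 and -4.50 for Saa1, -5.53 and -5.28 for Saa3, -5.12 and -4.23 for Apcs (serum amyloid P) and -5.11 and -4.27 for Lcn2 (lipocalin 2). Saa genes are near-identical copies and their split is uncertain. Each of the 1925 chow droplets had a Saa2 UMI, and the 10 richest held 2.07% of these UMIs.

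Cholesterol synthesis genes were lower in NASH diet droplets too. Of 20, 18 were at least 2-fold lower within droplets, median -2.06, and 15 within deep barcodes, median -2.21. The shares over all genes were 6.42% and 2.6%. Idi1, isopentenyl diphosphate isomerase, stood at 425 CPM in chow and 10.8 CPM in NASH diet droplets, a ratio of -4.76, against 447 and 10.3 CPM in deep barcodes, -4.89. Fdps, farnesyl diphosphate synthase, had -4.13 and -3.67.

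Fatty acid oxidation genes were higher in NASH diet droplets. Of 18, 10 were at least 2-fold higher within droplets, median 1.18, and 7 within deep barcodes, median 0.97, with 0 lower in either. Over all genes, 3.89% in droplets and 2.48% in deep barcodes were higher. The droplet median of the list was 0.72 with the gate at 5%. Acaa1b, a peroxisomal thiolase, stood at 321 CPM in chow and 2938 in NASH diet droplets, a ratio of 3.18, against 150.2 and 1357 CPM in deep barcodes, 3.13. Scd1 stood at 474 and 4099 CPM in droplets, 3.10, against 1267 and 10528 in deep barcodes, 3.05. Inmt (an N-methyltransferase) had 3.27 and 3.37, Acot1 (an acyl-CoA thioesterase) 3.10 and 3.01, and Dbp (a circadian transcription factor) 3.33 and 2.51. For these genes the droplets and the deep barcodes of a library gave the same direction.

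Some lists went opposite ways in droplets and deep barcodes. Pericentral genes had a NASH diet over chow median of -0.58 in droplets and 0.53 in deep barcodes, and enzymes of the endoplasmic reticulum -0.32 and 0.40. With the gate at 5% the droplet median of the endoplasmic reticulum enzymes was 0.09 and so not opposite. Cyp2e1 had -0.76 and 0.72. Glul was higher in both, with 0.43 and 1.90. Major urinary proteins were lower in both, with medians of -1.23 (-0.66 with the gate at 5%) and -0.33. At least 2-fold lower were 8 of 13 and 2 of 13, against 6.42% and 2.6% of all genes. The major urinary protein genes are near-identical copies too, so reads may be split between them.

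**Figure D5:**
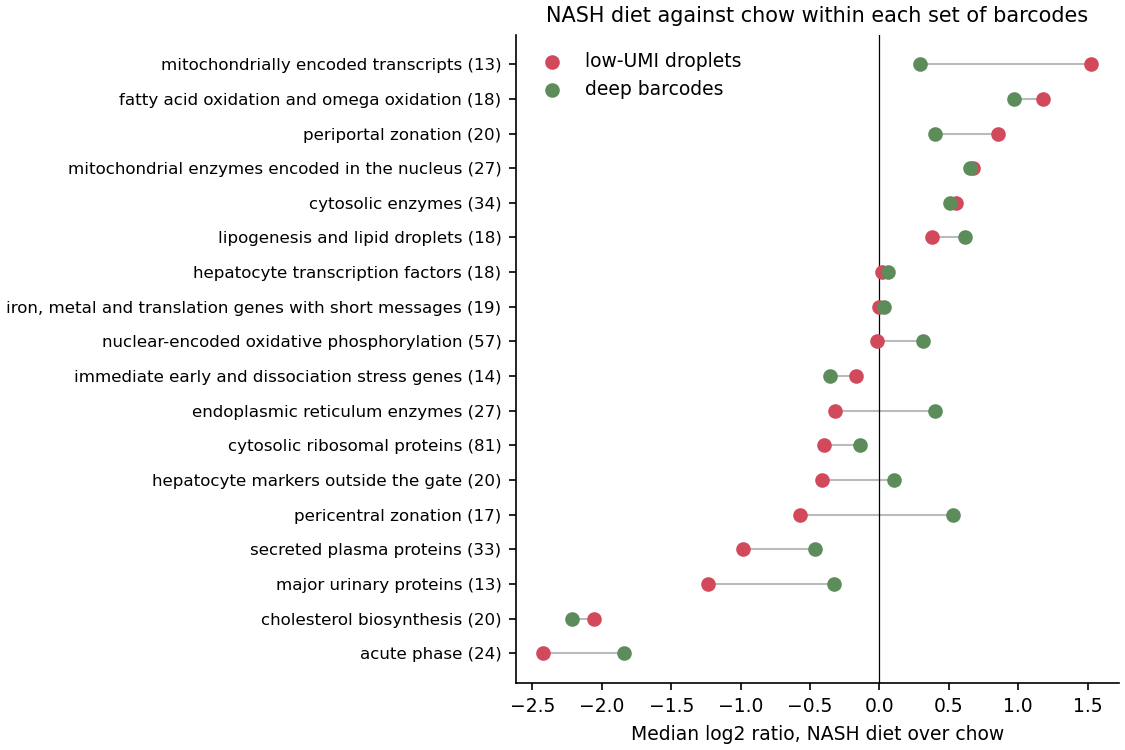
Each line joins the median log2 ratio, NASH diet over chow, of 1 gene list in low-UMI droplets and in deep barcodes, with the number of genes that passed the filter in brackets. Acute phase (-2.42 and -1.84), cholesterol synthesis (-2.06 and -2.21) and fatty acid oxidation (1.18 and 0.97) lie on the same side in both sets, while pericentral genes (-0.58 and 0.53) do not.

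Whole profiles were last compared. Over 4019 genes outside mt and the gate, Spearman's rho of log2 CPM was 0.87 between droplets of the chow and NASH diet libraries and 0.91 between their deep barcodes. Between droplets and deep barcodes of 1 library it was 0.73 in chow and 0.71 in the NASH diet. These rho values are across genes of 4 sums and are given as a description.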

How the data were processed

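Single-cell RNA was measured in 1 chow and 1 NASH diet library. The values are UMI counts per gene and barcode, deposited as 1 matrix per library and 1 merged matrix. Per the submitters' processing notes, the authors used Cell Ranger 3.1.0 and Seurat with build mm10, whereas the matrix header names software version 3.0.2. Every deposited droplet listed here had over 200 genes. In the merged matrix the chow library held 86.4% of its own UMIs and the NASH diet library all of its UMIs, so each library's own matrix was used.

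From the counts, UMIs were summed over droplets and over deep barcodes, scaled to CPM, and compared as log2 ratios with a pseudocount of 5 CPM. Genes with a mean of at least 20 CPM over the 4 sums were kept, and at least 2-fold was counted. Exact Clopper-Pearson, Poisson and conditional binomial 95% intervals were computed. Genes were named by rule: the 10 higher and 10 lower with the largest smaller ratio of both libraries (mt and gate genes aside), the 6 higher and 6 lower between diets within droplets, and up to 4 genes of highest mean CPM per list. Gnmt, Tat, Fos, Egr1, Glul, Pigr, Sds, Prdx1 and Sod1 were named after their values had been seen. Of the genes the rule names, 1 is not reported here. The droplets and the 29 gene lists were chosen with earlier results of these data known, so no list is independent support. The ribosomal-repeat share was set to Gm42418 and AY036118, and the length bins, after the files had been seen. Transcript lengths, positions and sequences came from GENCODE M21 (GRCm38, equal to mm10), in which 30934 of 31053 gene IDs were found; the longest principal transcript was used. No doublet caller was run. In a simulation, both sums of a library were drawn at random from its deep profile, with 4-fold changes put into genes well above the CPM filter. Recovered were 100% of higher and 99% or more of lower genes, with 0% of unchanged genes counted. The simulation held no spread between barcodes, so these rates cover counting error only. Python 3.11.15, numpy 2.4.6, scipy 1.17.1, pandas 2.3.3 and matplotlib 3.10.9 were used. In all, 11 alternatives fixed with the design and 4 added later were run.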

Additional observations from a re-analysis of the deposited data

Results flagged for a closer look

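Several results went opposite ways in the 2 libraries, or in droplets and deep barcodes; with 1 library per diet none of these differences was tested, and the values are log2 ratios. Between the libraries, the droplet over deep median of the mt- messages was -1.25 in chow and 0.11 in the NASH diet, a difference of 1.36; the mt limit of the rule acts on these genes, and the second value was -0.92 with that limit at 15% for droplets only. The major urinary proteins had 0.33 and -0.27, a difference of -0.60. Saa1 had 0.38 and -0.42, a difference of -0.79. With the gate at 5% the NASH diet values of both turned to 0.69 and 0.20. Gm26917 had -1.85 and 1.76, a difference of 3.61.

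Between droplets and deep barcodes, the NASH diet over chow median of pericentral genes was -0.58 and 0.53, a difference of -1.11. Enzymes of the endoplasmic reticulum had -0.32 and 0.40, a difference of -0.72, where the first became 0.09 with the gate at 5%, and hepatocyte markers outside the gate had -0.41 and 0.11, a difference of -0.52. Subunits of oxidative phosphorylation had -0.02 and 0.31, a difference of -0.33. The list of iron, metal and translation genes had -0.0021 and 0.035, a difference of -0.037. The droplet values of these last lists kept their sign in 9 and 6 of 13 alternatives. Gm26917 had 3.44 and -0.17, a difference that is -3.61 as deep minus droplets.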

How the results depend on the processing

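No paired analysis was possible because each diet has 1 library and the labels give no replicate numbers. For the same reason no replicate could be left out. Of 11 alternatives fixed with the design and 4 added later, 12 bear on the ribosomal-repeat log2 ratio, which kept its sign in all 12. Its values outside the counting interval, chow then NASH diet, were 3.72 and 4.08 for droplets under 1000 UMIs, 3.54 and 3.72 without the tenth of deep barcodes with most UMIs, 3.53 and 3.58 with the mt limit at 15%, 3.28 and 3.22 with the gate at 5%, and 3.44 and 3.62 for droplets under 5% ribosomal-repeat UMIs. In chow alone it was 3.55 in the merged matrix. In the NASH diet alone it was 3.76 with deep barcodes from 5000 UMIs, 3.79 as the mean over barcodes and 3.51 with 15% for droplets only.

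The counts of genes in both libraries, 423 higher and 351 lower, became 7 and 65 with the mt limit at 15%, where fewer deep barcodes were left, and the 351 became 212 with a filter of 50 CPM, where fewer genes were compared. Between the diets within droplets, the 157 higher genes became 270 under 1000 UMIs, 457 with the mt limit at 15%, 300 with the gate at 5%, 414 without mt and ribosomal-repeat UMIs, 94 with the 50 CPM filter and 483 with 15% for droplets only; the 259 lower became 490 with the gate at 5%. The cause of the shifts with fewer droplets was not tested. The gate at 5% left 385 chow and 110 NASH diet droplets.

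All 14 list medians of at least 2-fold kept their sign under every alternative run for them, and so did 73 of 76 gene ratios. The exceptions, in NASH diet droplets over deep barcodes, were Gstp1 at -0.16 and Scd1 at 0.53 with the mt limit at 15% and Gm26917 at -1.70 with the gate at 5%. Size was kept less often. With the mt limit at 15%, 9 of the 14 medians and 22 of the 76 ratios no longer reached 2-fold in their direction, and with the gate at 5% 7 and 6. Without mt and ribosomal-repeat UMIs in the total it was 3 and 2, without droplets holding other cell types' marker UMIs 0 and 2, and with 15% for droplets only 1 and 0. Under the other 10 alternatives it was 0. Low depth limits single genes: 4 or 9 UMIs lie behind the lowest values named.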

Other observations

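Some metal and antioxidant messages not described so far were high in droplets. Mt1, metallothionein 1, stood at 17924 CPM in chow droplets against 7376 in deep barcodes and at 5952 against 2613 CPM in the NASH diet, log2 ratios of 1.28 and 1.19, which were 0.65 and 0.03 with the mt limit at 15% for both sets. Ftl1, the ferritin light chain, had 1.48 and 1.38, and Prdx1, a peroxiredoxin, 1.23 and 1.24. Sod1, superoxide dismutase 1, had -0.70 and -1.17 although its transcript of 641 bases is short, and Selenop, the secreted selenium carrier, had -1.55 and -1.98. They belong to a list of iron, metal and translation genes with short messages that also holds Ubb and Tmsb4x. Of its 19 genes that passed the filter, 10 were at least 2-fold higher in chow and 8 in the NASH diet, against 1 and 2 lower. The shares over all genes were 17.1% and 12.9% higher, and 12.3% and 15.9% lower. The list medians were 1.22 and 0.85. Against genes of the same length bin, the list's own included, the medians were 0.20 and 0.10. With the mt limit at 15% for both sets they were 0.65 and 0.03.

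Of 18 hepatocyte transcription factor messages, 0 were at least 2-fold higher and 2 lower in chow, and 1 higher and 2 lower in the NASH diet, with medians of -0.43 and -0.48. Of all genes, 12.3% and 15.9% were lower, a share near theirs. Cebpb, an inflammation-responsive factor, had 0.82 and 0.76, and Hnf4a, a master regulator of hepatocyte identity, -0.49 and -0.14.

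In the few chow droplets with 20 to 30% mt UMIs (32 droplets), Malat1 stood at 1108 CPM, cytosolic enzymes at 2.66% and ribosomal proteins at 5.48% of UMIs. In the 672 with under 5% mt they stood at 47.5 CPM, 4.54% and 9.29%. In the NASH diet the 471 droplets with 20 to 30% mt had 825 CPM, 5.90% and 6.01%, and the 230 with 10 to 20% had 1353 CPM, 7.02% and 6.86%. These bins were set after the data had been seen.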
